A study of Mus musculus with 2 samples.

Results

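The transcription factors that mark and maintain the regions of the gut were followed in mice with and without Lrrc19. The 7 members are the caudal-type homeobox factors Cdx1 and Cdx2, the nuclear receptors Hnf4a and Hnf4g, the zinc-finger factors Gata4 and Gata6, and the odd-skipped zinc-finger factor Osr2. All probe sets whose only annotated gene symbol is one of these 7 were taken, which gave 17 probe sets of 34945 with a single symbol, and 7 genes of 18193. One sample was an RNA pool from 5 Lrrc19 KO mice and the other an RNA pool from 5 WT mice, and each was hybridized to 1 Affymetrix mouse genome array. Both pools held 2 males and 3 females, 6 weeks old, of the C57BL/6 strain and kept free of specific pathogens. Lrrc19 encodes a leucine-rich repeat receptor of the gut epithelium, and the sources used here name no allele, Cre, or tissue for the knockout. The cells were released from the intestine with 30 mM EDTA and then depleted of CD4 and CD8 cells, B cells, DCs, and macrophages, and the labels name no part of the intestine. The question addressed here is whether the transcripts that set regional identity differed between the pools.

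In the mouse gut, Cdx2 holds the epithelium in an intestinal rather than a gastric state, and Cdx1 acts beside it, most strongly toward the distal gut. Hnf4a and Hnf4g bind the same sites and switch on the lipid-handling and brush border genes of the absorptive enterocyte. Gata4 is known from the duodenum and jejunum, where it keeps jejunal genes on and bile acid genes of the ileum off, and Gata6 is known from the whole length of the intestine. Osr2 is also known in the mouse from the development of the palate and limbs.

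The pools were checked before the factors were read. Lrrc19 had an intensity of 212 in the Lrrc19 KO pool, against 905 in the WT pool, on one probe set, and 20.9 in the KO pool, against 391 in the WT pool, on the other, which can match several transcripts. Both were lower in the KO pool, but no source gives the position of the probes against the deletion. All 8 epithelial markers were bright, with a summed intensity of 86279 in the KO pool and 82050 in the WT pool, but all 7 smooth muscle markers were bright too, with sums of 64613 in the KO pool and 48670 in the WT pool. Each of these 7 was higher in the KO pool on its brightest probe set, by log2 differences (KO minus WT, as throughout) of 0.26 to 0.65, whereas the second probe set of Des was at -0.12. In bulk RNA, fewer cells of a type and less RNA per cell cannot be told apart. The adipocyte markers summed to 976 in the KO pool and 1962 in the WT pool. Markers of the depleted immune cells were still measured, with sums of 1168 in the KO pool and 1142 in the WT pool for T cells and 2818 in the KO pool and 3150 in the WT pool for macrophages and DCs. The B cell markers were dim, with 166 in the KO pool and 108 in the WT pool for Ms4a1 and Cd79a under the floor, whereas the plasma cell gene Jchain had 8701 in the KO pool and 9030 in the WT pool. The ratio of 3′ to 5′ signal, a sign of RNA integrity, was higher in the KO pool for all 3 control genes, with 5.89 in the KO pool and 4.14 in the WT pool for Tfrc, the farthest apart in size, and 1.77 in the KO pool and 1.75 in the WT pool for Actb, the closest. The part of this in the readings of the factors was not tested. A single array stands for each genotype, so no replicate error, test, or p-value exists, and precision is limited by that number. The nearest yardstick is the robust SD of the log2 difference over the 12518 genes that reached an intensity of 127 in at least 1 pool, which was 0.27. It is a spread between genes, which holds real differences as well as noise, and not the error of any single gene. The intensity of 127, the median of all values of both arrays without the control probe sets, served as the floor for dim signals.

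Of the 7 factors, 5 reached the floor, and 1 of them, Osr2, was at least 2-fold lower in the KO pool, while none was at least 2-fold higher. Across the whole array, 0.407% of the genes that reached the floor were at least 2-fold lower and 0.559% at least 2-fold higher in the KO pool. These were 51 lower and 70 higher genes, so 57.9% of the genes past 2-fold were higher, but this split follows the scaling. It was 41.1% with both arrays set to the same median, 73.6% with the arrays centred on control genes, and 3.15% with them centred on spike-ins. The median log2 difference of the 5 factors was -0.36, against 0.01 for every gene that reached it, with 2 factors above 0 and 3 below. With 5 values this median is the reading of Gata6 on its brightest probe set. The other Gata6 probe set past the floor was at 0.29, so the median does not stand for a shared direction. Counted by probe set, 11 of the 17 reached the floor. Of these 11, 1 probe set was at least 2-fold lower and none was at least 2-fold higher, beside 0.425% and 0.729% of all probe sets at or above the floor. Of the other 10, 7 were above 0 and 3 below, but 4 of those above 0 read the same gene, Hnf4a.

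**Figure D1:**
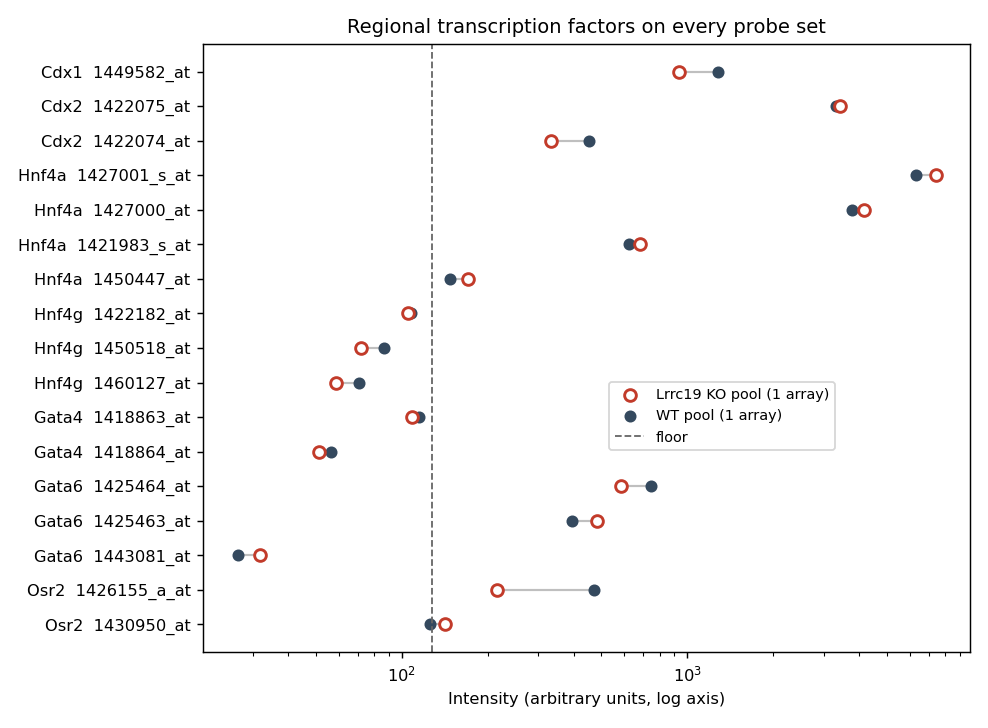
Intensity (log axis, arbitrary units) of every probe set of the 7 factors in the Lrrc19 KO pool (open) and the WT pool (filled), 1 array for each genotype and thus without error bars. A dashed line marks the floor (127). The widest gap among the signals past it is that of one Osr2 probe set (215 in KO and 472 in WT), and all probe sets of Hnf4g and Gata4 lie left of the floor.

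Osr2 differed most, and its probe sets did not run the same way. Probe set 1426155_a_at had an intensity of 215 in the Lrrc19 KO pool and 472 in the WT pool, which is 2.20-fold lower in KO (log2 difference -1.14). Of all genes at or above the floor, 0.583% had a difference this large in either direction. Probe set 1430950_at gave 142 in the KO pool and 126 in the WT pool, with the WT value just under the floor, and its log2 difference was 0.17. The distance between these readings, 1.31 on the log2 scale, was large for the array. Among the 3099 genes with 2 probe sets at or above the floor the median distance was 0.19, and 0.419% had one as large. Averaged over both probe sets, the log2 difference of Osr2 was -0.48, which does not pass 2-fold. Markers of adipocytes were also lower in the KO pool in 2 of 3 cases, Adipoq with 24.4 in KO, under the floor, and 313 in WT, and Fabp4 with 648 in KO and 1372 in WT, while Cidec had 304 in KO and 276 in WT. Of the ileal bile acid genes read below, 4 reached the floor and all 4 were lower in the KO pool too (median -0.42). The part of either list in the Osr2 reading was not tested. The relative Osr1, a factor of the embryonic mesoderm, was under the floor in both pools, at 71.4 in KO and 76.3 in WT.

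The caudal-type factors differed by less than 2-fold. Cdx1, measured by a single probe set, had an intensity of 933 in the KO pool and 1282 in the WT pool (1.37-fold lower, log2 difference -0.46). This is more than the robust SD of 0.27, although 11.8% of all genes at or above the floor differed as much. Cdx2 was at 3436 in the KO pool and 3309 in the WT pool on probe set 1422075_at (log2 difference 0.05), and at 334 in the KO pool and 453 in the WT pool on 1422074_at (1.36-fold lower, log2 difference -0.44). The brighter probe set of Cdx2 thus differed by less than the robust SD, while the dimmer one was close to the difference seen for Cdx1. Of the genes with 2 probe sets at or above the floor, 10.4% had readings as far apart as the 0.49 of Cdx2. The relative Cdx4, a factor of the posterior embryo, was under the floor in both pools, at 61.3 in KO and 51.3 in WT.

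Hnf4a was read by 4 probe sets, all past the floor, and they gave the same direction and nearly the same size. Probe set 1427001_s_at gave 7397 in the KO pool and 6299.5 in the WT pool, and 1427000_at gave 4145 in the KO pool and 3756 in the WT pool. Probe sets 1421983_s_at and 1450447_at gave 681 and 170.0 in the KO pool, against 627 and 147 in the WT pool. All 4 were thus slightly brighter on the KO array, by log2 differences of 0.12 to 0.23. These readings spanned 0.11 on the log2 scale, and 98.0% of the 456 genes with 4 probe sets at or above the floor spanned as much or more, with a median of 0.44. Each difference was under the robust SD of 0.27, and 39.8% of all genes at or above the floor differed as much as the brightest probe set. The sign also depends on how the arrays are scaled. Affymetrix hybridizations carry spiked control transcripts, and all 18 of their probe sets gave higher signals in the KO hybridization (median log2 difference 0.50). When the arrays were centred on these spike-ins, Hnf4a was at -0.27. As deposited, the smooth muscle markers were higher in the KO pool too, by a median log2 difference of 0.40, and the epithelial markers by 0.05. Both medians were smaller than the 0.50 of the spike-ins, so their signs depend on the scaling too. The part of either marker list in the Hnf4a reading was not tested.

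Transcription of Hnf4a in the mouse begins at 2 separate promoters, and the array values do not say which probe sets read which transcript. Both RefSeq windows of GRCm38.p6, from 250 bases before to 50 bases after the start on the plus strand, are shown because Hnf4a gave the most even readings of the factors with several probe sets past the floor and because a GATA box stands in one of them. The upstream window lies at chr2:163506607-163506906 and the downstream one at chr2:163546905-163547204, 5′ to 3′, with the capitals marking the GATA box AGATAA.
Hnf4a upstream start: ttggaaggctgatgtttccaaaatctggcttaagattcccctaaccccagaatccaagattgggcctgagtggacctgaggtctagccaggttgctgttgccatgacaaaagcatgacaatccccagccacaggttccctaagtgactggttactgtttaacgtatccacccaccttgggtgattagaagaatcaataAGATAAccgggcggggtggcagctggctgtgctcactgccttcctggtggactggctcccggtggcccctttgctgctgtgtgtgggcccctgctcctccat
Hnf4a downstream start: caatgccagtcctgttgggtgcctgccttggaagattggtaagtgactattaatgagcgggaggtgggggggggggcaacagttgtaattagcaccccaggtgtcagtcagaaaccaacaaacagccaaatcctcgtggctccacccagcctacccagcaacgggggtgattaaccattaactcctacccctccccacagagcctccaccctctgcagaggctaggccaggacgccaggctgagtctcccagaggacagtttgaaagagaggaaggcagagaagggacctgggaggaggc
The box covers bases 199 to 204 of the upstream window, counted from its 5′ end. AGATAA on either strand occurs in 11.2% of all 32851 RefSeq windows of this length, so its presence is a description and not evidence of a bound site. RefSeq windows were held for 2 of the 7 factors, Hnf4a and Cdx2, and the Cdx2 window held none of the letters searched for here.

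Hnf4g, the second HNF4 receptor, was under the floor on all 3 of its probe sets. Probe set 1422182_at gave 105 in the KO pool and 107 in the WT pool, 1450518_at gave 71.9 in the KO pool and 86.9 in the WT pool, and 1460127_at gave 58.9 in the KO pool and 70.7 in the WT pool. Each was lower in the KO pool in the values as deposited, but signals under the floor carry no reliable ratio, and no fold is given. A dim probe set does not show that the transcript is absent.

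The GATA factors differed from each other in whether they reached the floor. Gata4 was under it on both probe sets, at 109 in the KO pool and 115 in the WT pool on 1418863_at, and at 51.4 in the KO pool and 56.4 in the WT pool on 1418864_at. Gata6 reached it on 2 of its 3 probe sets, and these disagreed. Probe set 1425464_at was at 584 in the KO pool and 748 in the WT pool (1.28-fold lower, log2 difference -0.36), while 1425463_at was at 481 in the KO pool and 394 in the WT pool (1.22-fold higher, log2 difference 0.29). A distance of this size, 0.65, was seen in 5.29% of the genes with 2 probe sets at or above the floor. The third, 1443081_at, was at 31.9 in the KO pool and 26.7 in the WT pool, under the floor. The 2 probe sets past the floor averaged -0.03, and its direction is not settled. Gata6 is also known from smooth muscle. As deposited, all 7 smooth muscle markers were higher in the KO pool on the brightest probe set, and their part in the Gata6 readings was not tested.

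**Figure D2:**
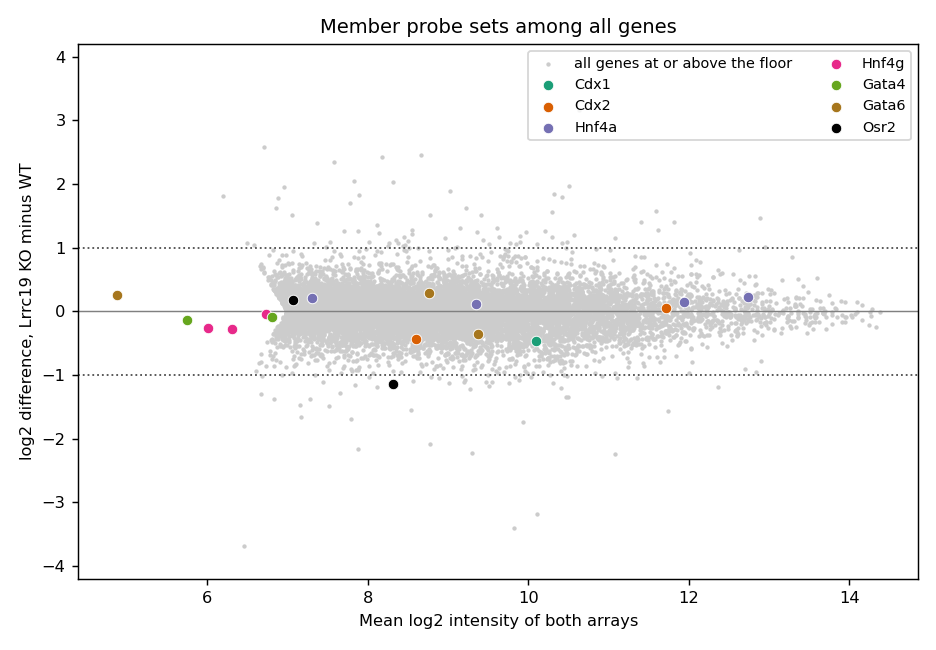
Log2 difference (Lrrc19 KO minus WT) against the mean log2 intensity of both arrays, for all 12518 genes at or above the floor (grey, 1 probe set per gene) and every probe set of the 7 factors (colored). Dotted lines mark 2-fold; one Osr2 probe set (-1.14) lies past them, and the other probe sets of the factors lie between -0.46 and 0.29.

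The relatives of the GATA factors were read beside them. They are other genes, some of them of other cell types, and give no error for the Gata4 or Gata6 readings. Gata5, which is also expressed in gut endoderm, was at 234 in the KO pool and 188 in the WT pool (log2 difference 0.31). Gata2, a factor of blood progenitors and mast cells, was at 544 in the KO pool and 507 in the WT pool, and Gata1, which drives red cell and mast cell genes, was at 392 in the KO pool and 485 in the WT pool (log2 difference -0.31). Gata3, the T cell factor, was under the floor in both pools, at 31.2 in KO and 35.1 in WT. Of the 6 relatives on the array, 3 reached the floor, and none of these differed 2-fold.

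The processing was varied to see how far each reading of the factors held. Over 10 other settings the log2 difference of Osr2 stayed below 0 and lay between -1.63 and -0.48, and it was past 2-fold in all but the one that averaged the probe sets. That of Cdx1 also stayed below 0, from -0.96 to -0.36. Cdx2 changed sign in 3 of the 10 and lay between -0.44 and 0.15. Hnf4a changed sign in 1 and lay between -0.27 and 0.33, and Gata6 lay between -0.85 and 0.06, the one value above 0 being the average that takes in its dim probe set. All of the lowest values came from the spike-in centring, under which the median over all genes was -0.49, and Osr2 stood 1.14 below that median.

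**Figure D3:**
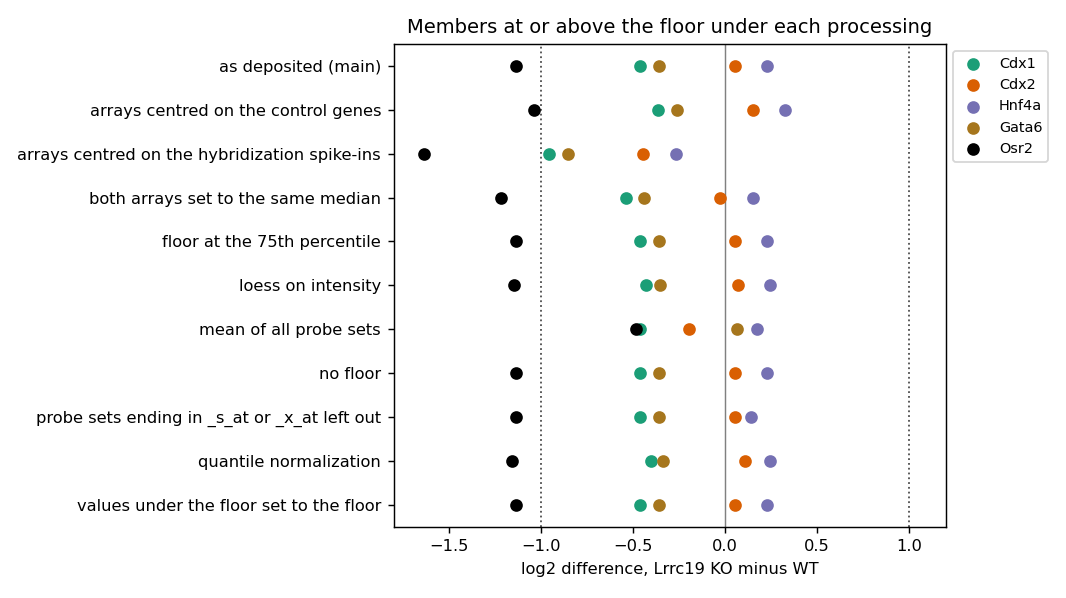
KO-minus-WT log2 difference of the 5 factors that reached the floor, with the values as deposited on top and 10 alternatives under them, each point from 1 array per pool. Osr2 is left of the 2-fold line at -1 everywhere except when its probe sets are averaged (-0.48), and centring on the spike-ins moves all 5 to the left.

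Genes that the factors are known to control in the gut were read next, from lists assembled with earlier results of these arrays known. Of 17 CDX target genes, 16 were measured and all 16 reached the floor. Of these, 1 differed 2-fold, the peptide transporter Slc15a1. It was 3.71-fold higher in the KO pool (1001 in KO and 270 in WT, log2 difference 1.89). Beside this, 0.559% of all genes at or above the floor were at least 2-fold higher and 0.407% at least 2-fold lower. The median of the list was -0.04, with 7 genes above 0 and 9 below. The largest differences downward were those of the claudin Cldn2, a pore-forming tight junction protein, with 837 in the KO pool and 1611 in the WT pool (log2 difference -0.94, and -0.27 on its other probe set), and of the homeobox factor Isx, a regulator of vitamin A uptake, with 976 in the KO pool and 1531 in the WT pool (-0.65). The CDX targets thus did not run one way, and the part of the caudal-type factors in their readings was not tested.

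No HNF4 target gene differed 2-fold on its brightest probe set. Of all genes at or above the floor, only 0.559% were at least 2-fold higher and 0.407% at least 2-fold lower. A count of none in a short list thus says little, and this holds for the other lists with none past 2-fold. Of the lipid-handling genes, 10 of the 13 measured reached the floor, none differed 2-fold, and the median was -0.01. The largest differences were those of Apoc2, an activator of lipoprotein lipase (285 in KO and 195 in WT, 0.54), and of Acaa2, a thiolase of fatty acid oxidation (1644 in KO and 2166 in WT, -0.40). Acaa2 was lower on all 3 of its probe sets, one of them by -1.15. Of the brush border genes, all 13 measured reached the floor and none differed 2-fold. Their median was 0.10, with 10 above 0 and 3 below. Vil1, the microvillus protein villin, was at 5762 in the KO pool and 5569 in the WT pool, and the largest differences were those of the claudin Cldn15 (851 in KO and 1193 in WT, -0.49), and of the actin bundler Espn (330 in KO and 253 in WT, 0.39).

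The genes that GATA4 is known to govern fall into a jejunal and an ileal list. Of 7 jejunal genes that it maintains, 5 reached the floor, none differed 2-fold, and the median was 0.02. Ada, the adenosine deaminase of the duodenum, was at 180 in the KO pool and 263 in the WT pool (-0.54), and the sterol transporter Abcg8 was at 172 in the KO pool and 150 in the WT pool (0.20). Of 5 genes of ileal bile acid handling that it holds off in the jejunum, 4 reached the floor and all 4 were lower in the KO pool, none of them 2-fold, with a median of -0.42. The bile acid carrier Fabp6 was at 151 in the KO pool and 251 in the WT pool (-0.74), and the basolateral transporters Slc51a and Slc51b were at 1041 and 1098 in the KO pool, against 1436 and 1421 in the WT pool. The apical importer Slc10a2 was at 372 in the KO pool and 466 in the WT pool (-0.33), and the hormone gene Fgf15 was under the floor at 98.6 in the KO pool and 108 in the WT pool. These genes also mark the ileum, and Gata4 itself was under the floor in both pools.

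The windows around the starts of a few target genes are shown for the letters of the CDX box (TTTATG) and the GATA box (AGATAA), in capitals where a script found them on either strand. Cldn2 is shown as the CDX target with the largest difference downward, Fabp6 as the ileal gene with the largest, Lct as a gene that both lists claim, and Slc15a1 as the one target past 2-fold. The sequences are RefSeq windows of GRCm38.p6, read 5′ to 3′ on the strand of the gene, and lie at chrX:139800558-139800857 (plus strand), chr11:43601513-43601812 (minus strand), chr1:128328269-128328568 (minus strand), and chr14:121505205-121505504 (minus strand).
Cldn2: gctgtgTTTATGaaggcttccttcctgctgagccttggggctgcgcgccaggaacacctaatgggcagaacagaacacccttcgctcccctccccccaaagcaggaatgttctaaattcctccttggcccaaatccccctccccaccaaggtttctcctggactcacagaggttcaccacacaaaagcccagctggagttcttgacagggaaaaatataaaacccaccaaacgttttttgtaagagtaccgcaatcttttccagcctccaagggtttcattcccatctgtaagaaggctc
Fabp6: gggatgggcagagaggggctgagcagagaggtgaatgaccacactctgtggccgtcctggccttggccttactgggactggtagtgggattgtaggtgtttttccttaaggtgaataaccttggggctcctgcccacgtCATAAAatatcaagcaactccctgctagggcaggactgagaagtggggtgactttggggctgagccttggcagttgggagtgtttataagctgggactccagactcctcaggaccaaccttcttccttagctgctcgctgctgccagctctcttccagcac
Lct: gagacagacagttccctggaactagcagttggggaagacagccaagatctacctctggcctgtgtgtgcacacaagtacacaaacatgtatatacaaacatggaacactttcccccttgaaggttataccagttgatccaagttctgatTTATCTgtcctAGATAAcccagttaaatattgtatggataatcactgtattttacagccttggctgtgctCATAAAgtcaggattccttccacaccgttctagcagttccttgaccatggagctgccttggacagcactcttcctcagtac
Slc15a1: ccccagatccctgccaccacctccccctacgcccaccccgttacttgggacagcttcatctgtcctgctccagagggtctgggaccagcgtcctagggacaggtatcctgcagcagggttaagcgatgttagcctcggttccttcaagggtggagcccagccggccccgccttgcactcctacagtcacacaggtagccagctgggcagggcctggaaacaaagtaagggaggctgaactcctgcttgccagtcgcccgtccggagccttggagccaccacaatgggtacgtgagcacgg
Cldn2 and Fabp6 each held 1 CDX box, Lct held 1 CDX box and 2 GATA boxes, and Slc15a1, which differed most between the pools, held neither. Lct, the lactase of the jejunal brush border, was at 272 in the KO pool and 308 in the WT pool (-0.17). The CDX box was found in windows of 4 of 13 CDX targets, beside 13.6% of all 27025 genes with a window, and the GATA box in 3 of 7 of the jejunal genes, beside 12.7%. Other lists varied as widely. The CDX box was in 4 of 12 brush border genes and 0 of 11 factors of the gut mesenchyme. The GATA box was in 1 of these 12 and 4 of these 11. The lists are short and share genes, as Mep1a is in both the CDX and the brush border list. These counts thus do not say whether the boxes are particular to the lists of their targets. The HNF4 motif was searched for as CAAAGTCCA and was found in none of the 9 lipid-handling and 12 brush border genes with a window, beside 0.555% of all genes. These boxes share no bases with each other in the windows shown, and a window without a box says only that these letters are not in it.

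Other factors of the epithelium and of the gut wall were set beside the 7. Of 27 partner factors of the epithelium, 24 were measured and 22 reached the floor. None of these differed 2-fold on its brightest probe set, and the median was 0.05. Klf5, a factor of crypt proliferation, did so on another probe set, with 1114 in the KO pool and 397 in the WT pool (1.49), while its brightest had 5658 in the KO pool and 6008 in the WT pool (-0.09). Prdm1, a repressor that holds the fetal epithelium immature, was at 176 in the KO pool and 117, under the floor, in the WT pool. Tcf7l2, the Wnt effector that sustains crypt stem cells, was at 1143 in the KO pool and 821 in the WT pool (0.48), and above 0 on each of its 4 probe sets. By brightest probe sets the largest difference in the list was that of Isx, already given among the CDX targets. Pdx1 and Onecut2, which belong to the proximal gut, were under the floor in both pools. Of 16 factors of the gut mesenchyme, 11 reached the floor and 9 of them were above 0, with a median of 0.24 and none 2-fold different, but with the arrays centred on the spike-ins the median was -0.25. The smooth muscle markers, at a median of 0.40 as deposited, were higher in the same pool, and their part in this was not tested. The largest difference was that of Hand1 (456 in KO and 292 in WT, 0.64), whose second probe set was under the floor at 99.0 in the KO pool and 101 in the WT pool.

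Markers of the proximal small intestine, ileum, and colon were read in the same pools. By summed intensity, the measured colon markers were at 107429 in the KO pool and 97770 in the WT pool. The ileum markers were at 11750 in KO and 11532 in WT, and the proximal ones at 8936 in KO and 8757 in WT. The colon marker Car1 (18909 in KO and 22420 in WT) was the brightest signal on the WT array. The lists differ in length, and the segment behind the readings of the factors and targets was not tested. Of 16 markers of the colon that were measured, 15 reached the floor, 4 were at least 2-fold higher in the KO pool and none was at least 2-fold lower, with a median of 0.71. Beside this, 0.559% of all genes at or above the floor were at least 2-fold higher and 0.407% at least 2-fold lower. These lists too were assembled with earlier results of these arrays known, so their counts are a description. Of the 15 colon markers, 10 were above 0 and 5 below, the lowest being Mettl7b (3133 in KO and 4152 in WT, -0.41). The mucin gene Muc2 was among the 5 (18071 in KO and 20977 in WT, -0.22). The homeobox gene Hoxd13 had 255 in the KO pool and 42.4, under the floor, in the WT pool, which is at least 2.00-fold higher against the floor. Its other probe set ran the opposite way under the floor, with 57.0 in the KO pool and 70.5 in the WT pool, and Hoxd13 no longer passed 2-fold with its probe sets averaged and did not reach a floor at the 75th percentile. Hoxb13 had 738 in the KO pool and 259 in the WT pool (1.51). The water channel Aqp8 was at 4873 in the KO pool and 2019 in the WT pool (1.27), and the acute-phase gene Saa1 at 11265 in the KO pool and 5585 in the WT pool (1.01). Slc26a3, the chloride exchanger of colon surface cells, was at 8844 in the KO pool and 4525 in the WT pool (0.97) on its brightest probe set and at 1368 in the KO pool and 485 in the WT pool (1.49) on another. Of the 10 ileum markers measured, 8 reached the floor, none differed 2-fold, and the median was -0.35, with 4 of these 8 shared with the bile acid genes above. The 8 proximal markers at or above the floor had a median of 0.04, and the largest difference was that of Rbp2, a retinol-binding protein of enterocytes (203 in KO and 131 in WT, 0.64). Of the 7 factors, Gata4 and Hnf4g were under the floor, and Gata6 and Cdx2 were without a settled direction. Cdx1 and Hnf4a were less than 2-fold different, and Osr2 was lower on 1 probe set alone. The part of the 7 factors in the marker readings was not tested. Nor was the share of each gut segment in the pools, which no label gives. With 1 pool per genotype, a different share of segments and a different level within a segment cannot be told apart.

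**Figure D4:**
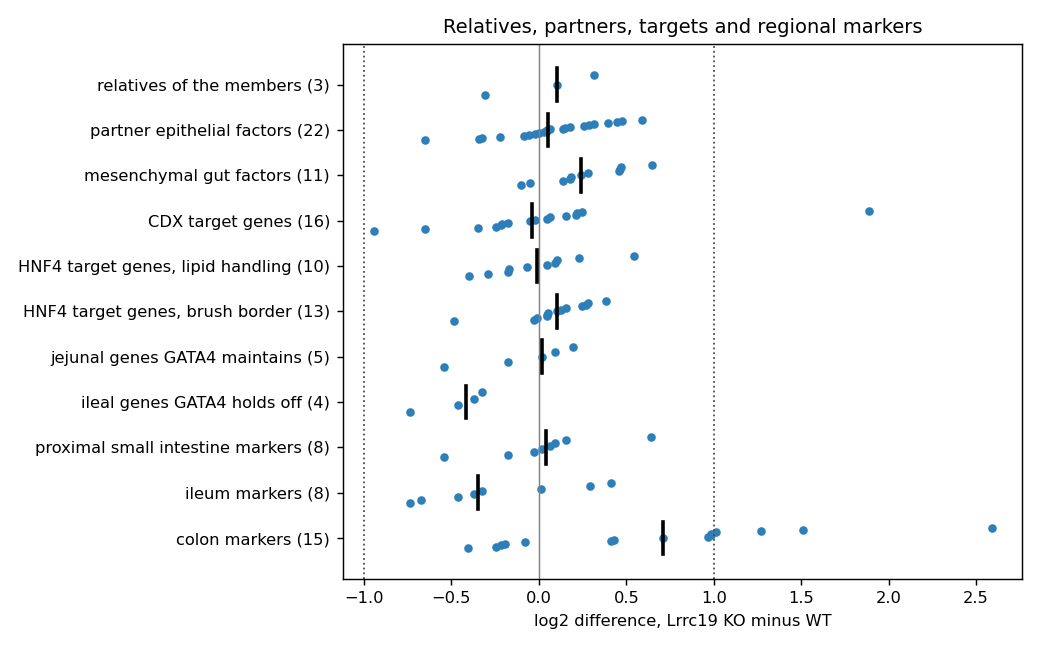
Each point is a gene that reached the floor, placed by its log2 difference, Lrrc19 KO minus WT (1 probe set per gene), in the lists of relatives, partner factors, target genes and regional markers, with the number of such genes in parentheses. Black bars are the medians; those of the colon markers (0.71) and of the ileal genes that GATA4 holds off (-0.42) lie farthest from 0, and dotted lines mark 2-fold.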

How the data were processed

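RNA from epithelial cells of 1 pool of Lrrc19 KO mice and 1 pool of WT mice was measured on 1 array each. The authors deposited a linear intensity for each of 45101 probe sets, from 1 to 25842 on the KO array and from 1 to 22420 on the WT array. The submitters' processing notes name RMA without a version, which usually gives log2 values, and neither the labels nor the methods state a scaling of one array to the other. An unknown linear scaling shifts all log2 differences by a constant.

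Intensities were raised to at least 1 and turned to log2 (Python 3.11.15, numpy 2.4.6, pandas 2.3.3, statsmodels 0.14.6). A gene was represented by its probe set with the highest mean. Dim signals were bounded by a floor at the 50th percentile of the values outside the control probe sets (127), reached on at least 1 array, and a log2 difference of at least 1 in size counted as 2-fold. A fold is given only where both pools reached the floor. Symbols were updated through gene identifiers with RefSeq GRCm38.p6 for 34741 of 34945 probe sets. No test was run. The calculation was tested on simulated data, with changes well past 2-fold in bright genes and less spread between genes than here. This checks the arithmetic and not the calls made here. The 7 members and the lists were chosen with earlier results of these data known. Named genes were all members on every probe set and, of each list, up to 4 genes past 2-fold or otherwise the 1 to 3 largest differences, and any other gene named was chosen after its values were seen. With 2 arrays a pattern is a single difference, so no gene was named for likeness to a member. Alternatives were 4 scalings (same median, 9 control genes, quantile, loess), 2 choices of probe set, and 3 floors. Centring on the spike-ins was added after seeing the data.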

Additional observations from a re-analysis of the deposited data

How the results depend on the processing

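Osr2 was the one member at least 2-fold lower under 9 of 10 alternatives, and with all probe sets averaged the number was 0. No member was at least 2-fold higher under any of the 10. The median log2 difference of the members, -0.36, was below 0 under all 10, and it was -0.083 with no floor, where the dim readings of Hnf4g and Gata4 enter it. As deposited this median is the reading of 1 Gata6 probe set, and the other Gata6 probe set past the floor was at 0.29. Its sign thus does not stand for a shared direction of the members. Among the genes of the 11 lists, 5 were at least 2-fold higher and 0 lower in the Lrrc19 KO pool. With the arrays centred on 9 control genes 8 were higher, among them B3gnt7, Slc26a3, and Sycn, and with both arrays set to the same median 1 was lower (Cldn2). With the arrays centred on the spike-ins, a setting chosen after seeing the data, 3 were higher (Hoxb13, Hoxd13, and Slc15a1) and 5 lower (Ada, Cldn2, Fabp6, Guca2b, and Isx). That setting moved the median over all genes to -0.49. The medians of the lists of relatives, partner factors, mesenchymal factors, CDX, HNF4, and jejunal targets, and proximal markers lay between -0.04 and 0.24 and changed sign under at least 1 scaling, whereas those of both ileal lists and of the colon list kept their sign under all 10. Every setting uses the same arrays, and the lists were chosen with earlier results of them known, so this is no independent support. Hoxd13 was past 2-fold under 8 of 10, not with all probe sets averaged or the floor at the 75th percentile. The jejunal list had no gene left with the floor at the 75th percentile. No paired analysis was possible because each genotype has 1 array. Signals near or under the floor, as for Gata4, Hnf4g, and the second Osr2 probe set, limit what can be read.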
